A study of Mus musculus with 24 samples.

Results

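The 9 genes described here carry the signals of interleukin 6 (IL-6), its relatives and interleukin 1 (IL-1) into liver cells. They comprised the receptor chains Il6ra, Il6st, Lifr and Osmr, the transcription factor Stat3, its feedback inhibitor Socs3, the IL-1 receptor Il1r1 with its co-receptor Il1rap, and the receptor antagonist Il1rn. They were selected by the gene name in the array files and not by their values, and were 9 of the 37008 gene names on the array. Each was read from the probe with the highest mean signal among its probes. All 9 were among the 18633 genes that passed the filter on dim probes, and 16 of their 22 probes passed it.

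The study compared livers of young mice weaned onto diets that differed in their sugar. In the GLU+GAL group (12 mice) glucose and galactose were mixed 1:1, and in the GLU group (12 mice) the sugar was glucose alone. All 24 mice were females of the C57BL/6JRcc strain per the labels, housed singly, fed from 3 weeks of age for 3 weeks on a diet with 32% of energy as monosaccharides, 32% as starch, 20% as protein and 16% as fat, and killed at postnatal day 42, deprived of food, in the light phase. RNA of the right liver lobe was labelled with Cy5 for each mouse and hybridised against a Cy3 pool made from all mice. Each value below is the log2 ratio of 1 mouse over the pool, 0 being equal normalised signal in both dyes. The dyes were not swapped, so a shift from 0 shared by all mice is not read as a level.

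IL-6 acts on hepatocytes by binding Il6ra, which then pairs with Il6st, the signal-transducing chain shared by most cytokines of the family. Lifr and Osmr take the place of a further Il6st chain for leukaemia inhibitory factor and oncostatin M. The paired chains activate Janus kinases, these phosphorylate Stat3, and Stat3 drives the acute phase genes of the liver together with Socs3, which shuts the receptor off again. IL-1 binds Il1r1, which recruits Il1rap and signals through Myd88 and NF-kB, while Il1rn occupies Il1r1 without signalling.

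For Lifr and Il1rap the array held probes to more than 1 transcript variant, and in the mouse both genes are known to give a soluble receptor as well as a membrane form. Of the 3 Lifr and 4 Il1rap probes, the brightest and the brightest to variant 1 are shown, with the Il6st probe whose diet difference is described below, by the first 30 of their 60 bases, 5′ to 3′, all in lower case because no base is singled out. Positions are those of the array files, on mm9.
Lifr variant 2, chr15:7135072-7135131, plus strand: taaaaacttggaaatgtatccaggcctaac
Lifr variant 1, chr15:7147319-7147378, plus strand: catagatgatgtaaatagcctaagacactg
Il1rap variant 2, chr16:26701498-26701557, plus strand: gatgttgtcaacgcctttgtttctaaatgt
Il1rap variant 1, chr16:26717577-26717636, plus strand: tgtatacagccacatgggatttaattctct
Il6st, chr13:113296586-113296645, plus strand: atcttctcacagtaagcagtctagttatgg
The Lifr variant 2 probe was the brightest of that gene and lay 12247 bases before the variant 1 probe shown, and the Il1rap variant 2 probe was likewise the brightest and lay 16079 bases before its variant 1 probe. Unless another probe is named, the values of Lifr and Il1rap below are those of the variant 2 probes. Whether these read the soluble or the membrane form was not tested.

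The 250 bases before the start of Socs3 are shown because this gene is the feedback arm of the pathway and had the widest range of the 9 over the 24 mice. They come from RefSeq on GRCm38.p6, at chr11:117969367-117969616 on the minus strand, and the capitals mark the letters TTCNNNGAA, the core that STAT factors can bind.
Socs3, bases before the start: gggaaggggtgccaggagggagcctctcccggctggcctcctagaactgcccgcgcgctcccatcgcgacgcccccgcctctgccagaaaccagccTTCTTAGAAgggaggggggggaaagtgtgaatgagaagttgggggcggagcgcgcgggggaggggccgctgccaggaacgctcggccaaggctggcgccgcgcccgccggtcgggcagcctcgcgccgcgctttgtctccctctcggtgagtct
The letters TTCNNNGAA read the same on both strands and began at base -154 counted from the start. They were searched in windows from 250 bases before to 50 bases after each start, and were found in 1 of 13 windows of the 9 genes, that of Socs3. Of all 32851 mouse windows of this length, 8.30% held them. A match shows the letters only, and none in the other 12 windows says nothing of Stat3 there.

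Before the values, arrays that stood apart need naming. On GLU+GAL 4 the pool channel had a median correlation of 0.968 with the other arrays, and its log2 ratios had an SD of 0.437. GLU 1 and GLU+GAL 5 had the next lowest correlations, both 0.990, and the lowest of the remaining arrays was GLU+GAL 11 at 0.996. GLU+GAL 12 was the only array on which Ddx3y and Eif2s3y, both on the Y chromosome, gave a signal well above background, and the only 1 on which Xist, seen on the other 23 arrays, did not, although every mouse is labelled female. Differences without GLU+GAL 4 and GLU+GAL 12 are given with the diet comparison. All 12 hepatocyte markers listed were measured, and all 9 chosen probes were well above background on 24 of 24 arrays. Between 46.6% and 51.3% of the spots were well above background in Cy5.

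Among the receptor chains of the IL-6 family, Lifr and Il6st had the lower means in GLU+GAL livers with an unadjusted p under 0.05, and neither passed the adjusted threshold of 0.05. Lifr, the gene of the receptor chain for leukaemia inhibitory factor, was read by its variant 2 probe. It ranged from -0.52 through a median of -0.11 to 0.23 in GLU+GAL livers, against -0.45, 0.08 and 0.53 in GLU livers. Of the 12 GLU+GAL mice, 9 were below the GLU mean, and 9 lay inside the GLU range, so the diets overlapped. GLU+GAL 12 and GLU+GAL 3 were the lowest GLU+GAL mice, and GLU 5 and GLU 7 the highest GLU mice. The means were -0.15 ± 0.26 in GLU+GAL and 0.08 ± 0.29 in GLU (SD, n = 12 each), a 0.848-fold level in GLU+GAL. The difference was -0.24 ± 0.11 (SE), with a 95% interval of -0.46 to -0.02 and an unadjusted limma p of 0.0347.

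Il6st, the transducing chain used by IL-6, ranged from -0.18 through a median of 0.13 to 0.44 in GLU+GAL livers, against 0.06, 0.25 and 0.45 in GLU livers. GLU+GAL 10 was the only mouse below 0, and 11 of 12 GLU+GAL mice were below the GLU mean. The means were 0.14 ± 0.14 and 0.26 ± 0.12 (SD, n = 12 each) for GLU+GAL and GLU, a difference of -0.12 ± 0.06 (SE) with a 95% interval of -0.23 to -0.005 and an unadjusted limma p of 0.0415. The gene varied little, with 23.2% of all tested genes having a smaller SD between mice of 1 diet.

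Il6ra, the chain that binds IL-6 itself, ranged from -0.41 through a median of 0.11 to 0.29 in GLU+GAL livers, against -0.24, 0.06 and 0.62 in GLU livers. GLU+GAL 10 was the lowest mouse and GLU 1 the highest, and 6 of 12 GLU+GAL mice lay on either side of the GLU mean. The difference was -0.03 ± 0.08 (SE, n = 12 per diet), with a 95% interval of -0.20 to 0.14. Osmr, the oncostatin M receptor chain, had a ratio below 0 in all 24 livers, from -0.43 through -0.27 to -0.005 in GLU+GAL and from -0.44 through -0.20 to -0.09 in GLU. With a pool made from all mice and no dye swap, this shared shift is not read as a level, and its cause was not tested. The diet difference of Osmr was -0.003 ± 0.05 (SE), the smallest of the 9, with a 95% interval of -0.11 to 0.11.

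**Figure D1:**
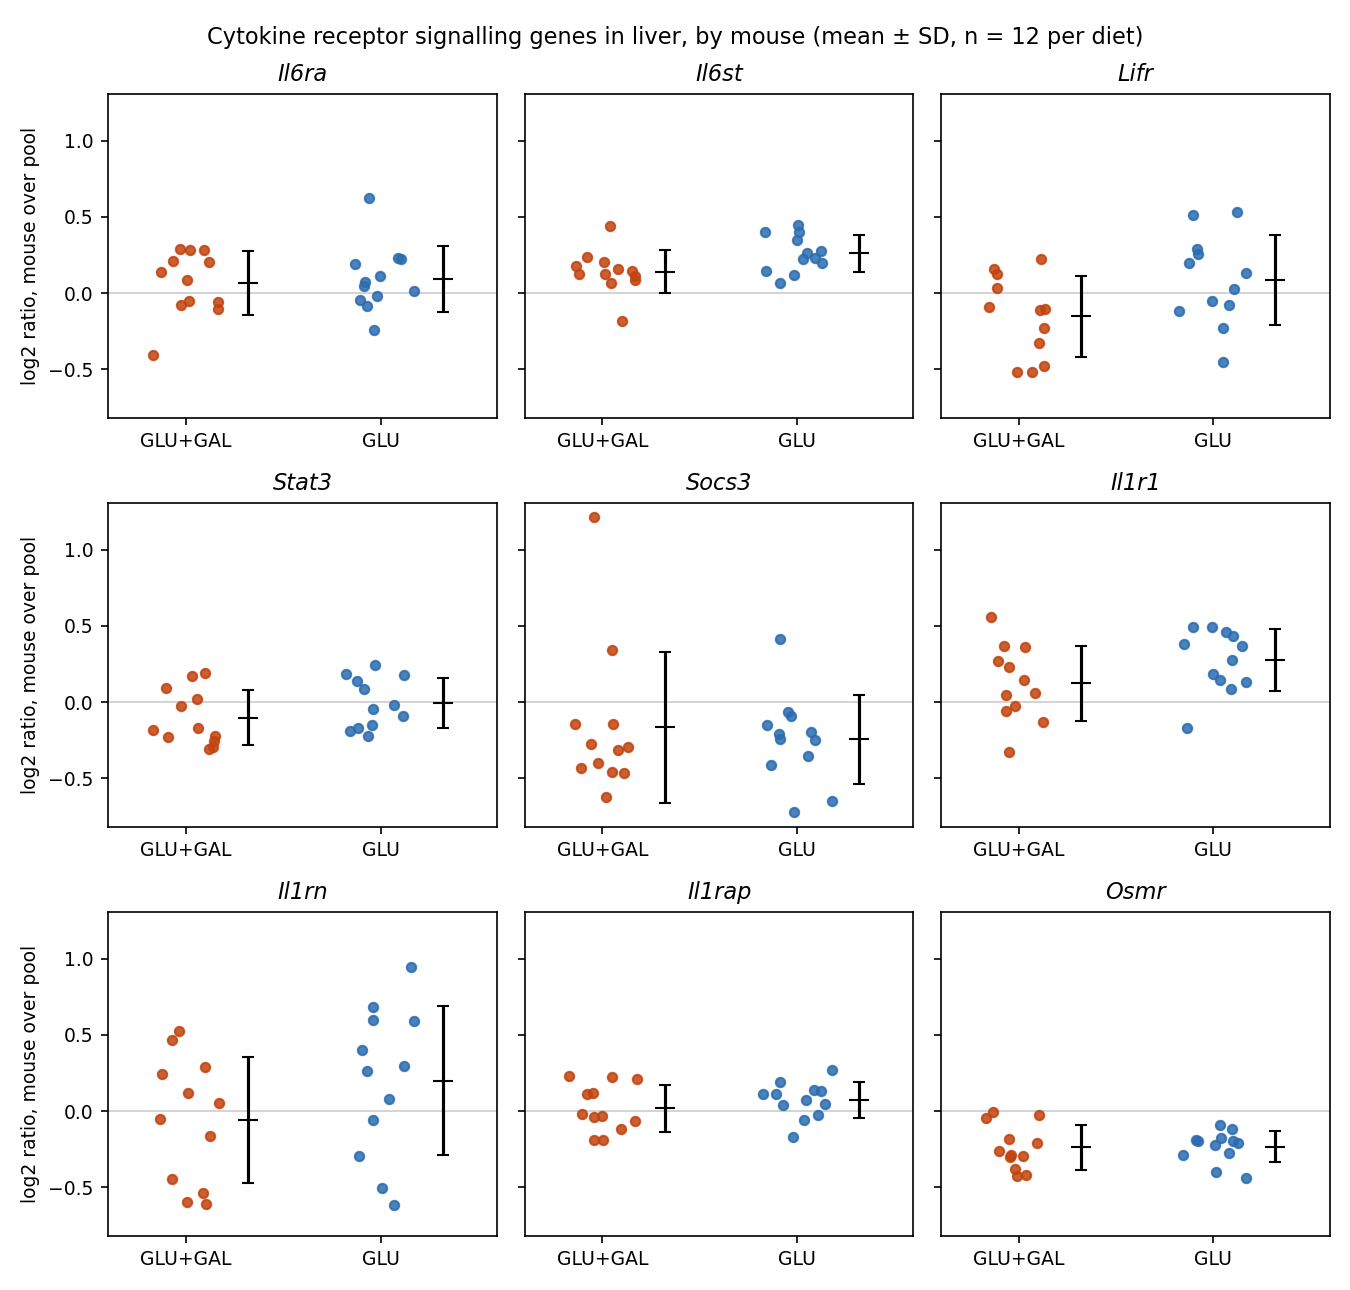
Log2 ratio of each mouse over the pool (vertical axis) for the 9 genes, with GLU+GAL mice left of GLU mice and black marks for mean ± SD, n = 12 per diet. The diets overlap in every gene, Osmr lies below 0 in all mice, and 1 GLU+GAL mouse reaches 1.21 in Socs3.

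Stat3, the factor activated by the IL-6 receptors, ranged from -0.31 through a median of -0.18 to 0.19 in GLU+GAL livers, against -0.22, -0.03 and 0.24 in GLU livers. Of the GLU+GAL mice 8 of 12 were below the GLU mean, and the difference was -0.10 ± 0.07 (SE), with a 95% interval of -0.24 to 0.05. Socs3, the feedback inhibitor, ranged from -0.62 through -0.30 to 1.21 in GLU+GAL livers, against -0.72, -0.23 and 0.41 in GLU livers. Its range of 1.93 over the 24 mice, a 3.82-fold span, was the widest of the 9.

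GLU+GAL 3 stood alone in Socs3, and the next highest GLU+GAL mouse, GLU+GAL 8, was at 0.34. The SD was 0.50 in GLU+GAL and 0.29 in GLU, and without GLU+GAL 3 it was 0.25 in GLU+GAL. The mean of Socs3 was higher in GLU+GAL by 0.08 ± 0.15 (SE, n = 12 per diet, 95% interval -0.24 to 0.39), although 8 of 12 GLU+GAL mice were below the GLU mean. Without GLU+GAL 3 the difference was -0.05, so its sign rested on that mouse.

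On the IL-1 side, Il1r1, the receptor, ranged from -0.33 through a median of 0.10 to 0.56 in GLU+GAL livers, against -0.17, 0.32 and 0.49 in GLU livers. GLU+GAL 4, the array with the lowest correlation in the pool channel, was the lowest. GLU 12 was the only GLU mouse below 0, and 9 of 12 GLU+GAL mice were below the GLU mean. The difference was -0.15 ± 0.09 (SE), with a 95% interval of -0.33 to 0.03. Il1rap, the co-receptor gene, was read by its variant 2 probe. It ranged from -0.19 through -0.02 to 0.23 in GLU+GAL livers, against -0.17, 0.09 and 0.27 in GLU livers. Of the GLU+GAL mice 10 of 12 lay inside the GLU range, and the difference was -0.05 ± 0.06 (SE), with a 95% interval of -0.17 to 0.07.

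Il1rn, the receptor antagonist, varied more between mice of 1 diet than 98.3% of all tested genes. It ranged from -0.61 through a median of -0.002 to 0.53 in GLU+GAL livers, against -0.62, 0.28 and 0.94 in GLU livers. GLU 12 was the highest, all 12 GLU+GAL mice lay inside the GLU range, and 8 of 12 were below the GLU mean. The means were -0.06 ± 0.41 in GLU+GAL and 0.20 ± 0.49 in GLU (SD, n = 12 each), and the difference of -0.26 ± 0.17 (SE), the largest in size of the 9, had a 95% interval of -0.61 to 0.09.

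The spread between mice of 1 diet thus differed among the 9 genes. After Il1rn, the SD of Socs3 exceeded that of 97.4% of all tested genes and the SD of Lifr that of 90.1%. The corresponding shares were 79.0% for Il1r1, 74.4% for Il6ra, 53.1% for Stat3, 27.8% for Il1rap and 20.6% for Osmr. These shares are descriptions, since the SD of a log2 ratio also depends on how bright a probe is. The Cy5 signals before normalisation were far above the local background, which averaged between 35.1 and 42.8 units at these probes. The Osmr probe averaged 213 ± 30.7 units in GLU+GAL and 206 ± 17.5 units in GLU (SD, n = 12 each). The Lifr probe averaged 9144 ± 1995 units in GLU+GAL and 10447 ± 2205 units in GLU, and the Il1rn probe 209 ± 80.5 units in GLU+GAL and 266 ± 105 units in GLU. Signals of different probes do not rank the genes by amount of RNA.

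The diet comparison asked whether the receptor genes differed between GLU+GAL and GLU livers beyond the spread between mice. None of the 9 passed limma's adjusted threshold of 0.05, each with an adjusted p of 0.999, and the test called 0 of 18633 genes, or 0%, with 0.522 as the lowest adjusted p. The other limma fits, with trend and robust variances and with array weights, also called 0 genes. At an unadjusted p under 0.05, 2 of the 9 genes were lower in GLU+GAL (Lifr and Il6st) and none was higher. That threshold was passed by 802 of all tested genes, or 4.3%, of which 495, or 2.66%, were lower in GLU+GAL and 307, or 1.65%, were higher. The mean was lower in GLU+GAL for 8 of the 9 genes, against 49.2% of all tested genes, and the median difference was -0.10 over the 9 and 0.001 over all tested genes. These counts over so few genes are descriptions. Because the samples were whole tissue, fewer cells of a type and less RNA per cell cannot be told apart.

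**Figure D2:**
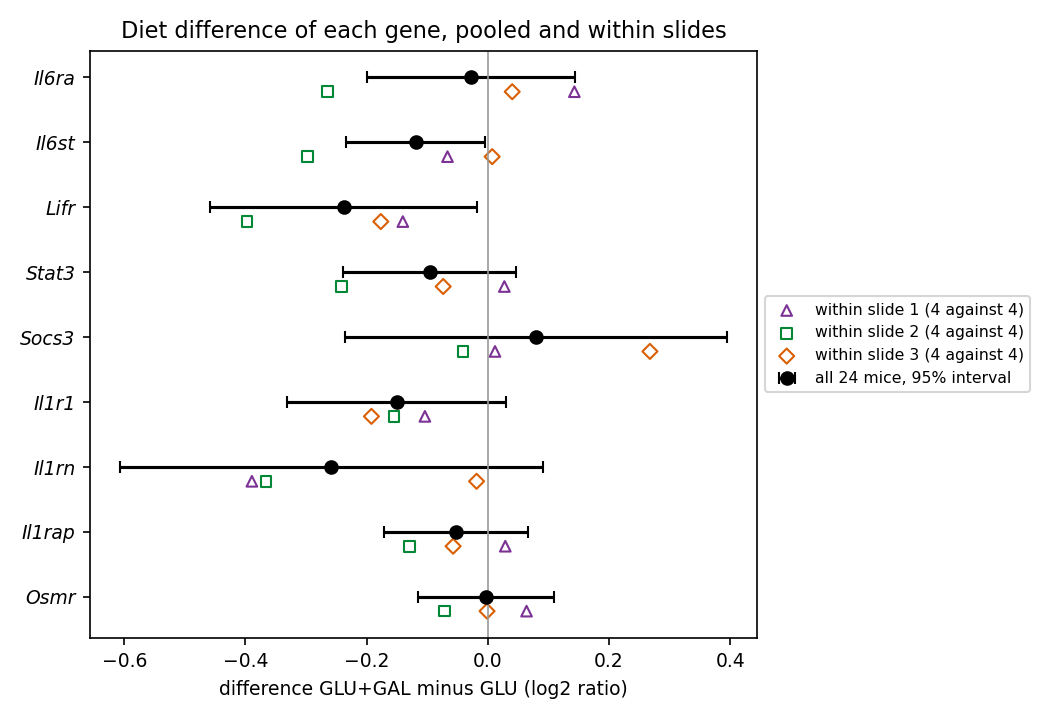
Difference GLU+GAL minus GLU in log2 ratio (horizontal axis) for each gene, with 95% intervals from limma over 24 mice in black and the values within each of 3 slides as open symbols (4 mice per diet). The intervals of Lifr and Il6st end just below 0, and slide 2 lies lowest of the slides for all genes but Il1r1 and Il1rn.

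Each slide held 4 arrays of each diet and was scanned once, so the comparison was repeated within slides. Lifr differed by -0.14, -0.40 and -0.18 within slides 1, 2 and 3, and Il1r1 by -0.10, -0.16 and -0.19, the same sign on all slides. Il1rn was also lower on each, by -0.39, -0.37 and -0.02. Il6st differed by -0.07, -0.30 and 0.01, so the lower mean was seen on slides 1 and 2 and was largest on slide 2. Stat3 differed by 0.03, -0.24 and -0.07, and Il6ra by 0.14, -0.26 and 0.04. The genes lower in GLU+GAL numbered 4 of 9 within slide 1, 9 of 9 within slide 2 and 6 of 9 within slide 3.

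Without GLU+GAL 4 and GLU+GAL 12 together, the difference was -0.18 for Lifr, -0.13 for Il6st, -0.11 for Il1r1, -0.25 for Il1rn, -0.11 for Stat3 and 0.12 for Socs3. Each of these kept its sign, Il6ra and Osmr turned to 0.002 and 0.03, and only Il6st still had an unadjusted p under 0.05. Leaving out each mouse in turn put the unadjusted p of Lifr between 0.00903 and 0.0706, under 0.05 in 15 of 24 cases, with differences of -0.29 to -0.20. For Il6st it lay between 0.00913 and 0.0898, under 0.05 in 11 of 24 cases, with differences of -0.15 to -0.09.

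The array carried further probes for 7 of the 9 genes, and these did not all give the same difference. For Lifr, the variant 1 probe shown above differed by -0.26 ± 0.12 (SE, unadjusted limma p of 0.0414), close to the -0.24 of the variant 2 probe. Over the 24 mice these 2 probes correlated with r = 0.677 and rho = 0.766, with permutation p values adjusted over 7 probe pairs of 0.00182 and 0.000420. Within slides 1, 2 and 3 r was 0.681, 0.665 and 0.559, and without the 2 mice farthest from the median it was 0.693. A dimmer Lifr probe, to variant 1 at base 3854 of the transcript, differed by -0.09 ± 0.09 (SE) and correlated with the chosen probe at r = 0.296 and rho = 0.307 (adjusted permutation p of 0.282 and 0.253).

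The variant probes of Il1rap differed by -0.05 ± 0.06 for variant 2 and 0.01 ± 0.09 for variant 1 (SE). No relation between them was detected over the mice, at r = -0.031 and rho = 0.036 (adjusted permutation p of 0.885 and 0.871). The variant 1 probe was the dimmer, at 341 Cy5 units against 5533. The probe of Il6st nearer the transcript's start, at base 2978, differed by -0.02 ± 0.07 (SE) against -0.12 for the chosen one. No relation of these 2 probes was detected over the mice either, at r = 0.067 and rho = 0.140 (adjusted permutation p of 0.885 and 0.599). Within slides 1, 2 and 3 r was 0.278, -0.160 and 0.482. The probe at base 2978 was the dimmer, at 141 Cy5 units against 1545. The interval of the difference lay below 0 for 1 of the 2 measured Il6st probes. The other probes differed by -0.01 for Il6ra, -0.09 for Stat3 and -0.05 for Il1rn, and 6 of the 22 probes were too dim to be tested.

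**Figure D3:**
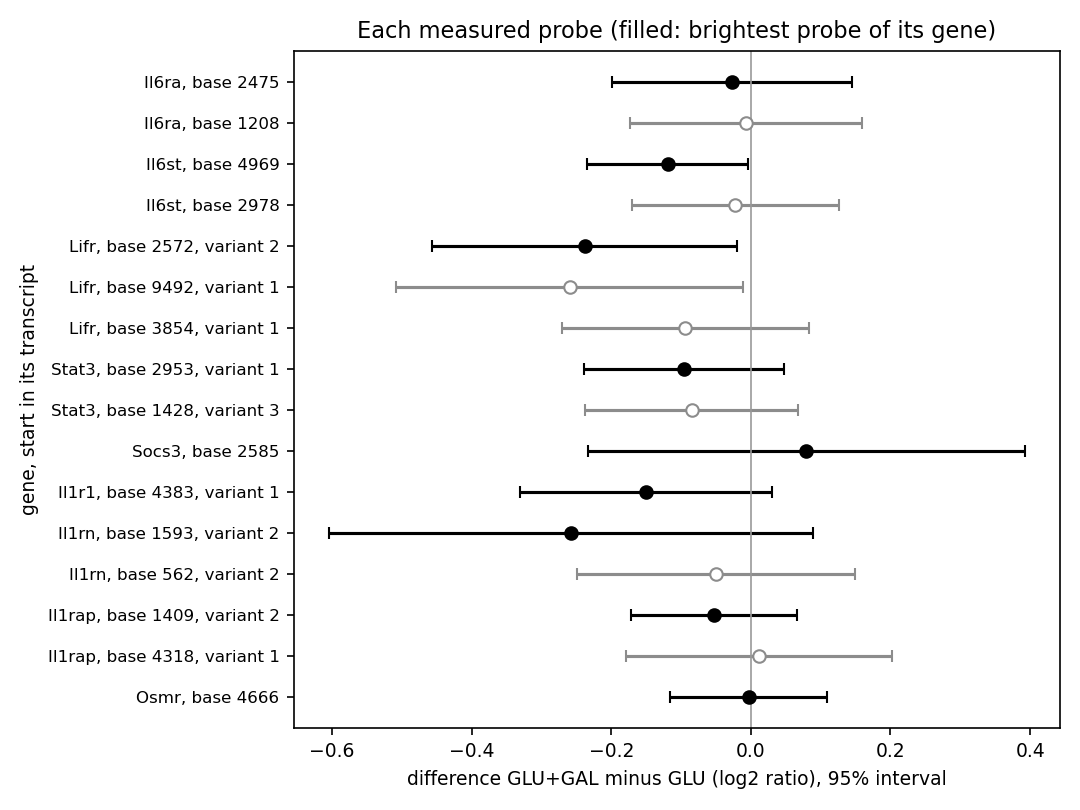
Difference GLU+GAL minus GLU in log2 ratio (horizontal axis) with 95% intervals for the 16 measured probes, filled for the probe that represents its gene and open for the others, labelled by the base of the transcript where the probe starts. Both Lifr probes at bases 2572 and 9492 lie near -0.25, while the second Il6st probe lies near 0.

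Covariation across mice was tested over the 36 pairs of the 9 genes. None passed an adjusted permutation p of 0.05 by r or by rho, 2 pairs had an unadjusted p under 0.05 by r, and 23 of the 36 coefficients were positive, with a median r of 0.129. Il6ra and Il6st, the chains that form the IL-6 receptor, had the highest r, 0.570, with rho = 0.381 (permutation p of 0.00403 and 0.0663, adjusted 0.145 and 0.613, n = 24). Without GLU+GAL 10 and GLU 1, the mice farthest from the median of Il6ra, r was 0.265, so the relation rested on those mice. Within slides 1, 2 and 3 it was 0.254, 0.759 and 0.109. Among all tested genes, 1.08% had an r with Il6ra as far from 0 as that of Il6st.

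Il6st and Stat3, its downstream factor, had r = 0.409 and rho = 0.359 (adjusted permutation p of 0.679 and 0.613). Within slides 1, 2 and 3 r was 0.186, 0.823 and 0.163, and it was 0.324 without GLU+GAL 10 and GLU 11. Stat3 and Socs3, the factor and its target, had r = -0.108 and rho = -0.307 (adjusted permutation p of 0.768 and 0.613). Il1r1 had no detected relation to the variant 2 probe of Il1rap, its co-receptor gene (r = -0.146, rho = -0.106), or to its antagonist Il1rn (r = -0.040, rho = 0.030). The adjusted permutation p values ran from 0.722 to 0.913. The most negative pair was Il1rn with Il1rap, at r = -0.339 and rho = -0.335 (adjusted permutation p of 0.745 and 0.613).

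**Figure D4:**
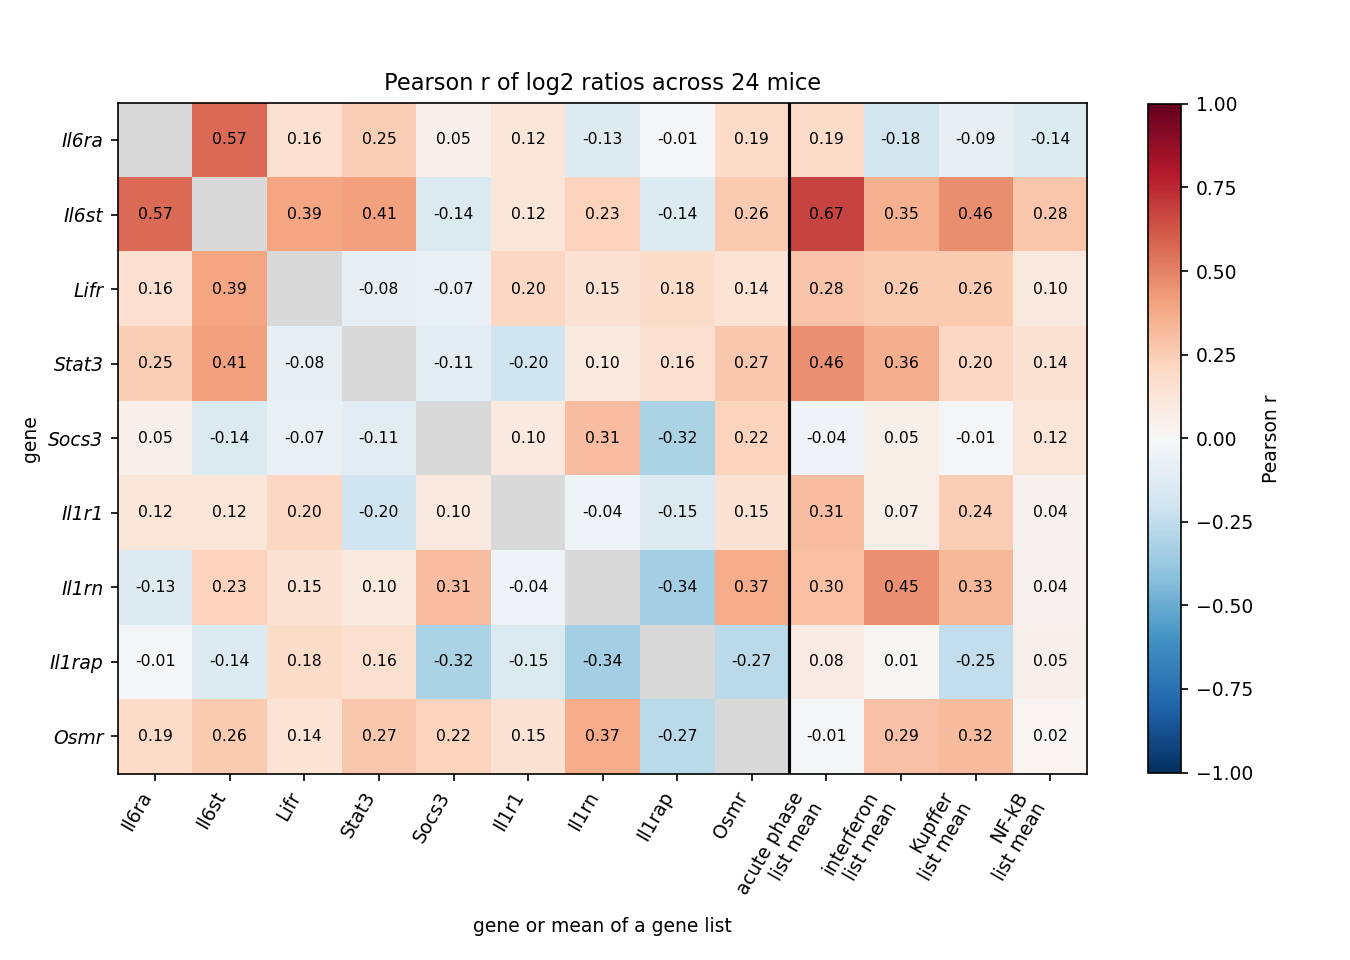
Pearson r over 24 mice between the 9 genes (left block) and of each gene with the mean log2 ratio of 4 gene lists (right block), with colour from blue at -1 to red at 1 and grey for a gene with itself. Il6st has the highest values, 0.67 with the acute phase list and 0.57 with Il6ra, and the lowest value is -0.34, between Il1rn and Il1rap.

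Each gene was then compared over the same mice with the mean log2 ratio per mouse of 4 lists. Acute phase targets and NF-kB factors and feedback targets lie downstream of the receptors. The interferon response and Kupffer cell markers lie beside them. All 4 lists were chosen with earlier results of these data known, which the adjusted p does not account for. Of the 36 relations 1 passed the adjusted permutation threshold, that of Il6st with the mean of 24 acute phase genes, the liver's secretory response to IL-6. Its r was 0.674 (permutation p of 0.000280, adjusted 0.0101) and its rho 0.557 (permutation p of 0.00522, adjusted 0.188, past no threshold), n = 24. It was 0.484 without GLU+GAL 10 and GLU 11, the mice farthest from the median of Il6st. Within slides 1, 2 and 3 r was 0.479, 0.761 and 0.718, within GLU+GAL livers 0.639 and within GLU livers 0.525. With the diet means removed it was 0.578, with an adjusted p of 0.0878, and without GLU 11 alone it was 0.629, with an adjusted p of 0.0508. The relation is that of the chosen Il6st probe. The other measured Il6st probe, a dimmer one, had no detected relation to the chosen one over the mice (r = 0.067, rho = 0.140). The acute phase mean was itself lower in GLU+GAL, at 0.08 ± 0.08 against 0.23 ± 0.09 in GLU livers (SD over mice). Of its 24 genes 21 had a lower and 3 a higher mean, against 49.2% lower of all tested genes. The 3 higher were Orm3 (0.16), Lcn2 (0.12) and Orm2 (0.01), while Hamp, Orm1 and Serpina3n differed by -0.01, -0.005 and -0.003. At an unadjusted p under 0.05, 14 of the 24 had a lower mean and 0 a higher mean. Of all tested genes, 2.66% were lower and 1.65% higher at that level, and none of the 24 passed the adjusted threshold. The 14 were Saa3, Saa2 and Saa1 (serum amyloid A proteins), the fibrinogen chains Fga, Fgb and Fgg, C3, Cp, Hpx, Apcs, Lbp, Itih3, Itih4 and Steap4, with differences from -0.54 for Saa3 to -0.15 for Lbp.

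**Figure D5:**
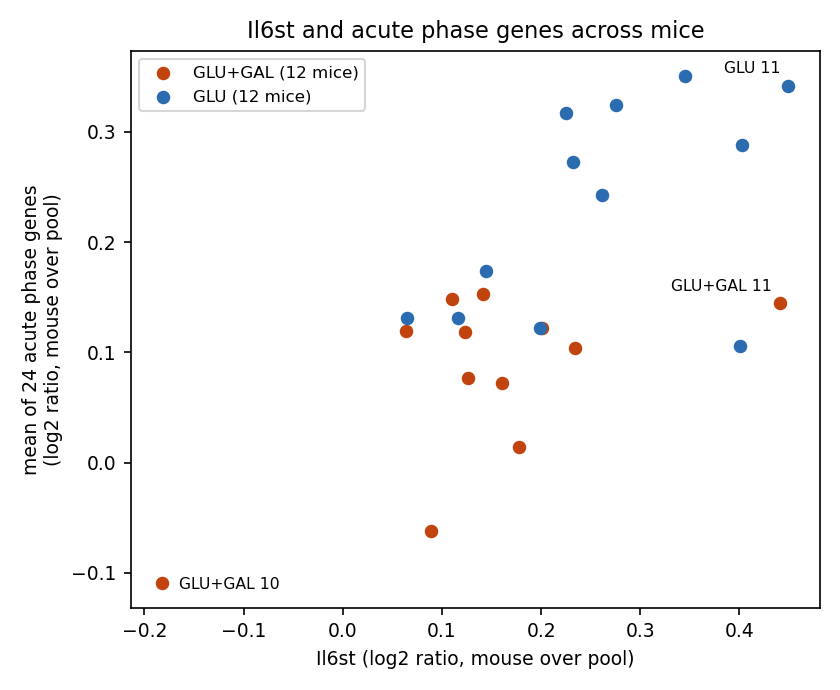
Each point is 1 mouse, with the chosen Il6st probe on the horizontal axis and the mean of 24 acute phase genes on the vertical axis, both as log2 ratio over the pool, GLU+GAL mice in red and GLU mice in blue. Points run from GLU+GAL 10 at lower left to GLU 11 at upper right. On the Il6st axis GLU+GAL 11, at 0.44, is the only GLU+GAL mouse among the highest GLU mice. Its acute phase mean is 0.14, below the GLU mean of 0.23.

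The next relations did not pass the adjusted threshold. Il6st with the Kupffer cell markers had r = 0.462 and rho = 0.375 (adjusted permutation p of 0.224 and 0.333). Stat3 with the acute phase mean had r = 0.456 and rho = 0.471 (adjusted 0.224 and 0.266), within slides 0.320, 0.562 and 0.551. Il1rn with the interferon list had r = 0.454 and rho = 0.430 (adjusted 0.224 and 0.315), yet r was -0.117 within GLU+GAL livers and 0.662 within GLU livers. Socs3, although the feedback gene of the same pathway, had r = -0.037 and rho = 0.048 with the acute phase mean (adjusted 0.957 and 0.970).

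The genes whose pattern over the 24 mice was most like each receptor gene were taken by Pearson r after the diet means were removed. They are listed without a p, since they are the highest values among all tested genes. The genes nearest to Socs3 were Gadd45g (0.769), a stress-induced gene, Myc (0.756), a growth-promoting transcription factor, and Foxq1 (0.687), a forkhead factor. GLU+GAL 3 was the highest mouse in all 3, and without it the values were 0.684, 0.646 and 0.439. Nearest to Il1rn were 2210408F21Rik (0.833), Mt1 (0.830), a metallothionein that binds zinc, and Slc2a5 (0.817), the fructose transporter. Usp18, a protease of the interferon response list that removes ISG15, reached 0.7002 with Il1rn.

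Nearest to Lifr were Pdilt (0.817), Sdr42e1 (0.815) and Fcsk (0.802), a fucose kinase, and in all 3 GLU+GAL 3 was the lowest mouse. Rela, an NF-kB subunit from the lists, followed Lifr at 0.764, with GLU+GAL 3 again lowest. Nearest to Il6st were Bptf (0.806), a chromatin remodelling subunit, Rgs14 (0.798) and Map2k7 (0.790), a kinase of the stress-activated cascade and itself on the IL-1 cascade list. Nearest to Il6ra were Tsc2 (0.741), Luc7l2 (0.725) and Capza1 (0.710), and nearest to Stat3 were Lrba (0.791), Shank2 (0.786) and Papss2 (0.783).

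Nearest to Il1r1 were Prkaa2 (0.849), a catalytic subunit of AMP-activated kinase, Akap8 (0.825) and Tmem87b (0.802). Il1rap had Mrpl4 (0.772), a mitochondrial ribosomal protein, Trappc2 (0.752) and Mtarc2 (0.750) nearest to it. Osmr had Flna (0.781), the actin cross-linker filamin A, C030005K06Rik (0.733) and Crim1 (0.726), and reached 0.706 with Kdr, an endothelial marker. No gene of the 9 was among the nearest of another.

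The remaining genes of the 2 pathways gave no adjusted call either, and are given by list. Of all tested genes, 49.2% had a lower mean in GLU+GAL, and 4.3% had an unadjusted p under 0.05. Of 8 IL-6 family ligands 4 were measured, 2 with a lower and 2 with a higher mean in GLU+GAL, the smallest p being that of Il27 (-0.09 ± 0.05, SE, unadjusted limma p of 0.0940). Il6 itself was well above background on 0 of 12 GLU+GAL arrays and 1 of 12 GLU arrays, and Il11 and Osm on none, so the ligand of the main receptor was below what these arrays measure. Of 6 further IL-6 family receptors 5 were measured, 4 lower and 1 higher. The higher one was Cntfr, the ciliary neurotrophic factor receptor (0.17 ± 0.08, SE, unadjusted p of 0.0511).

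Among 12 Janus kinases, STAT factors and phosphatases other than Stat3, 11 had a lower and 1 a higher mean in GLU+GAL. Of these Ptpn6, the phosphatase that switches off cytokine receptors in blood cells (-0.19 ± 0.05, SE, unadjusted p of 0.00111), and Stat6, the factor of IL-4 signalling (-0.15 ± 0.07, p of 0.0272), had an unadjusted p under 0.05. Among 11 inhibitors other than Socs3, 8 were lower and 3 higher. Of these Socs6 (-0.11 ± 0.04, p of 0.0148) and Socs2, the inhibitor of growth hormone signalling (-0.78 ± 0.37, p of 0.0439), had an unadjusted p under 0.05.

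Of 7 IL-1 family ligands 3 were measured, with Il1b (-0.17 ± 0.11, SE, unadjusted p of 0.122) the smallest p, and Il1a was well above background on 1 GLU+GAL array and no GLU array. Of 8 further IL-1 family receptors and inhibitors 3 were measured, with Il18bp, which binds and blocks IL-18 (-0.15 ± 0.09, p of 0.103), the smallest p. The decoy receptor Il1r2 was well above background on none. In the cascade below the IL-1 receptor, 12 of 19 genes were lower and 7 higher, and Irak4, the first kinase of the cascade (-0.08 ± 0.04, p of 0.0439), had an unadjusted p under 0.05. Of 13 NF-kB factors and feedback targets 10 were lower and 3 higher, and none had an unadjusted p under 0.05, the smallest being that of Rela (-0.12 ± 0.06, p of 0.0625).

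Markers of liver cell types also had different means in the 2 diets, without an adjusted call. The lists were chosen with earlier results of these data known. Of all tested genes, 49.2% had a lower mean in GLU+GAL. At an unadjusted p under 0.05, 2.66% of all tested genes were lower and 1.65% higher. Of 12 Kupffer cell markers, which mark the macrophages of the liver, 11 had a lower mean in GLU+GAL and 6 had an unadjusted p under 0.05, all lower, namely Marco (-0.54 ± 0.21, SE, p of 0.0172), C1qa, C1qc, Clec4f, Csf1r and Cd68 (-0.16 ± 0.08, p of 0.0495). Their mean per mouse ran from -0.51 to 0.31 in GLU+GAL livers, against -0.13 to 0.71 in GLU livers. Of 12 hepatocyte markers 10 had a lower mean, 5 with an unadjusted p under 0.05 (Alb, Apoa1, Hnf4a, Serpina1a and Tf, from -0.22 for Apoa1 to -0.15 for Tf), and the list mean was 0.21 ± 0.13 in GLU+GAL and 0.30 ± 0.12 in GLU livers (SD over mice). The hepatocyte means ran from -0.05 to 0.36 in GLU+GAL and from 0.09 to 0.51 in GLU. Without GLU+GAL 4 the hepatocyte markers with a lower mean again numbered 10, and 1 (Hnf4a) had an unadjusted p under 0.05. All 24 interferon response genes had a lower mean. Those with an unadjusted p under 0.05 numbered 10, namely the GTPases Igtp, Iigp1, Ifi47, Irgm1, Irgm2, Gbp2 and Gbp7, the chemokine Cxcl10, Cmpk2 and the factor Irf1, from -0.62 for Igtp to -0.20 for Irf1. The part of these lists in the differences of Lifr, Il6st and Il1rn was not tested.

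Of 9 neutrophil markers 6 were measured, 4 lower and 2 higher, and of 12 T, NK and B cell markers 9 were measured, all lower, with Ly6g (-0.23 ± 0.06, SE, p of 0.000758) and Cd4 (-0.19 ± 0.08, p of 0.0260) the only ones in their lists with an unadjusted p under 0.05. The Cd4 probe averaged 33870 Cy5 units, against 1193 for Cd3e and 201 for Cd3d, and whether it reads T cells was not tested. Endothelial markers (9 of 9 measured, 5 lower), stellate cell markers (8 of 8, 6 lower) and cholangiocyte markers (4 of 6, 1 lower) had no gene with an unadjusted p under 0.05, nor had the 5 of 9 skeletal muscle markers measured. All 5 muscle markers had a higher mean in GLU+GAL with every array, and 2 (Myh4 and Tnni2) without GLU+GAL 4. The muscle list stood at 0.74 on that array and at 0.30 or less on the other 11 GLU+GAL arrays, and its mean in GLU+GAL was 0.10 with it and 0.05 without it, against 0.07 in GLU livers. The smallest p in these 4 lists were those of Cdh5 (-0.12 ± 0.06, SE, p of 0.0731), Lrat (-0.16 ± 0.09, p of 0.0863), Spp1 (0.16 ± 0.10, p of 0.103) and Myh4 (0.08 ± 0.08, p of 0.356). Without GLU+GAL 4, limma's unadjusted p was under 0.05 for Cd79b in place of Cd4, and also for Lrat, Il1b and Myd88, and no longer for Socs2. Without GLU+GAL 12 it was under 0.05 for Nfkbia and no longer for Socs2 or Cd68, and without both arrays no longer for Stat6. With 1 or both of these arrays left out, a choice made after the data were seen, 12 or 13 acute phase genes, 10 interferon genes and 5 or 6 Kupffer markers had a lower mean at that level. No member of these lists passed limma's adjusted threshold.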

How the data were processed

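Spot intensities of each dye came from the deposited scanner files, which the submitters' processing notes credit to Agilent Feature Extraction (version 10.7.3.1). The mean and median local background signals were intensities as scanned, per the file headers. The authors' deposited value table gave log2 values of 29287 spots, every column with a median of 8.6. These followed the Cy5 channel of the same array, and their scaling was not given in the sources used. In limma 3.58.1 (R 4.3.3), normexp (offset 50) corrected the signals and loess normalised the ratio of mouse to pool on each array, control spots having weight 0 and outlier spots being left out. The dyes were not swapped, so a constant dye effect cancels between diets. A gene was read from its probe with the highest mean signal and tested when 6 or more arrays of a diet had it well above background. Diets were compared by limma (lmFit, eBayes, 2-sided, Benjamini-Hochberg over 18633 genes, 12 mice per diet), and correlations by 2-sided permutation tests with 100000 resamples, exact within slides, Benjamini-Hochberg adjusted over each family of relations. Permutations ran in Python 3.11.15 with numpy 2.4.6 and scipy 1.17.1, and plots were drawn with matplotlib 3.10.9. The number of arrays limits the precision. The steps were tested on simulated data. Replicate numbers were not used as pairs in the main fit. Over 12 numbers the correlation of deviations ran from -0.379 to 0.521, with 8 over 0.1, and some mice of the same number shared a slide. Whether the numbers pair the mice was not settled. The named genes were all 9 genes with their other probes, the genes of each list with an unadjusted p under 0.05 or else the smallest p, the 3 genes most alike to each, and list genes with r of at least 0.7. The genes and lists were chosen with earlier results of these data known.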

Additional observations from a re-analysis of the deposited data

How the results depend on the processing

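Across 42 alternatives, 350 of 378 differences of the 9 genes kept their direction, 28 turned sign, and limma called none after adjustment, with 0.380 as the lowest adjusted p. Lifr, Il1r1 and Il1rn kept a lower mean in GLU+GAL throughout. Osmr turned to 0.0207 with Agilent's processed signals, 0.0275 with Cy5 alone, 0.00639 with array weights, 0.0638 within slide 1 and 0.0297 without GLU+GAL 4 and GLU+GAL 12 together. Il6ra turned to 0.0118 with median centring, 0.0325 in the authors' deposited table, 0.143 and 0.0402 within slides 1 and 3, and 0.0016 without those 2 arrays. Stat3 turned to 0.0272 and Il1rap to 0.0288 within slide 1, Il6st to 0.00715 within slide 3, and Socs3 to -0.0413 within slide 2. With each mouse left out in turn, Il6ra ran from -0.058 to 0.0206, Osmr from -0.0242 to 0.0141 and Socs3 from -0.046 (without GLU+GAL 3) to 0.139.

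Genes with an unadjusted p under 0.05 numbered 378 with median centring, 1241 without the filter, 1211 with array weights, and 1268 and 1630 within slides 1 and 2, against 802. Of the 9 genes, 0 reached that level with median centring, in the authors' deposited table and within slides 1 and 3, and 1 with Cy5 alone, with the mean over probes and without GLU+GAL 4 and GLU+GAL 12 together. Single omissions gave 0 to 3, with 3 without GLU+GAL 7 and without GLU 12, where Il1r1 joined, and 0 without GLU+GAL 3, 9 or 12 and GLU 1, 5 or 11. Within slide 1, 4 of the 9 had a lower mean. Over all genes, single omissions gave 0 adjusted calls, or 1 without GLU 3.

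With the replicate block, Lifr had an unadjusted p of 0.0044, and 1122 genes had one under 0.05, with 0 adjusted calls. In that check 6 of 24 mice correlated best with their own number.

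Relations of genes with list means past the adjusted threshold numbered 2 with slide means removed, 0 with diet means removed, within slides 1, 2 and 3, with Cy5 alone and in the authors' deposited table, and 0 (without GLU 11) to 1 with single mice omitted, of which 4 were tried. For Il6st with the acute phase mean, r was 0.578 with diet means removed, 0.479, 0.761 and 0.718 within slides 1, 2 and 3, 0.494 with Cy5 alone and 0.514 in the deposited table, all short of the threshold, and 0.629 to 0.683 with single mice omitted. The omission of GLU+GAL 3 was chosen after seeing the data. Among pairs of the 9 genes, 1 passed with Cy5 alone and 1 in the deposited table. The causes were not tested.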
